A study of Homo sapiens with 6 samples.

Results

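The 5 gamma-secretase subunit genes PSEN2, NCSTN, APH1A, APH1B and PSENEN and the 2 sheddase genes ADAM10 and ADAM17 were described in MOLT-3 cells, an established human line of T-cell acute lymphoblastic leukaemia. The 7 genes were taken by name from the deposited count and FPKM tables, where each had 1 row among 58735 genes. Polyadenylated RNA was sequenced from 3 libraries of cells given the solvent DMSO and 3 libraries of cells given compound E, a small-molecule inhibitor of gamma-secretase. All 6 libraries came from the same line, and the labels name neither a dose, a length of treatment nor separate cultures. The p-values therefore reflect spread among these libraries, part or all of which could be technical. The study looked for genes under NOTCH1 control that bear on how leukaemia cells respond to drugs.

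Gamma-secretase is a protease that sits in the membrane and cuts other membrane proteins within the lipid bilayer. A presenilin carries its catalytic aspartates, nicastrin, the product of NCSTN, screens substrates by the length of their outer stub, an APH1 protein acts as the scaffold, and PEN-2, the product of PSENEN, completes maturation of the complex. Most substrates must first lose their outer domain to a sheddase, and for NOTCH receptors bound by ligand that step belongs mainly to ADAM10, with ADAM17 able to cut in other settings. In T-cell leukaemia, activating NOTCH1 mutations make these cuts easier and the released intracellular part drives transcription, which is what gamma-secretase inhibitors stop.

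The libraries held 17316138 to 19845114 counts. The NOTCH targets HES4, DTX1, NOTCH3, IL7R and HES1 were all lower with compound E, at log2 fold changes between -4.90 and -2.16, and each passed the test. All 10 T-lymphoblast markers were detected, summing to 2877 to 2943 CPM (counts relative to the TMM-scaled library size) with DMSO and 3746 to 3841 CPM with compound E; 3 of them rose, 6 fell and 1 was not called, and RAG1 alone rose from 546 ± 8.09 to 1583 ± 34.9 CPM (SD, n = 3 per group). The B-cell markers MS4A1 and PAX5, the myeloid marker MPO and the stromal markers COL1A2, COL3A1 and DCN had 0 counts. The 5 B-cell markers summed to 14.2 to 15.4 CPM with DMSO and 13.6 to 15.0 CPM with compound E, nearly all of it CD79A. The 6 myeloid markers summed to 2.85 to 3.06 against 2.38 to 2.79 CPM, and the 5 stromal markers to 13.9 to 14.8 against 9.96 to 12.01 CPM. Most of the stromal sum was COL1A1, at 11.5 ± 0.893 CPM with DMSO and 9.63 ± 0.998 CPM with compound E (SD, n = 3 per group). COL1A1 was not called (edgeR adjusted p = 0.0521), though its groups did not overlap. PDGFRB fell from 2.80 ± 0.455 to 1.47 ± 0.199 CPM (edgeR adjusted p = 0.000575). The part of these differences in the results below was not tested.

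Among the 7 genes, ADAM10 and APH1B rose by 1.13-fold and 1.14-fold with compound E. Across all tested genes, 38.3% were called between compound E and DMSO (edgeR's quasi-likelihood test, Benjamini-Hochberg adjusted p below 0.05), 18.9% higher and 19.4% lower. Of the 7 genes, 6 had enough counts to be tested, and 2 of these, ADAM10 and APH1B, were called, both higher. NCSTN, APH1A, PSENEN and ADAM17 were not called, and 0 of the 6 were called lower, nor was any lower at an unadjusted p under 0.05 in edgeR or called lower with DESeq2 or limma-voom. A count of 2 in 6 is close to the share over all genes. The libraries of both groups did not overlap for the same 2 genes, beside 46.8% of all tested genes. The median log2 fold change of the 6 genes was 0.05, beside -0.0034 over the 16926 tested genes. In bulk RNA, fewer cells with a transcript and less transcript per cell cannot be told apart.

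**Figure D1:**
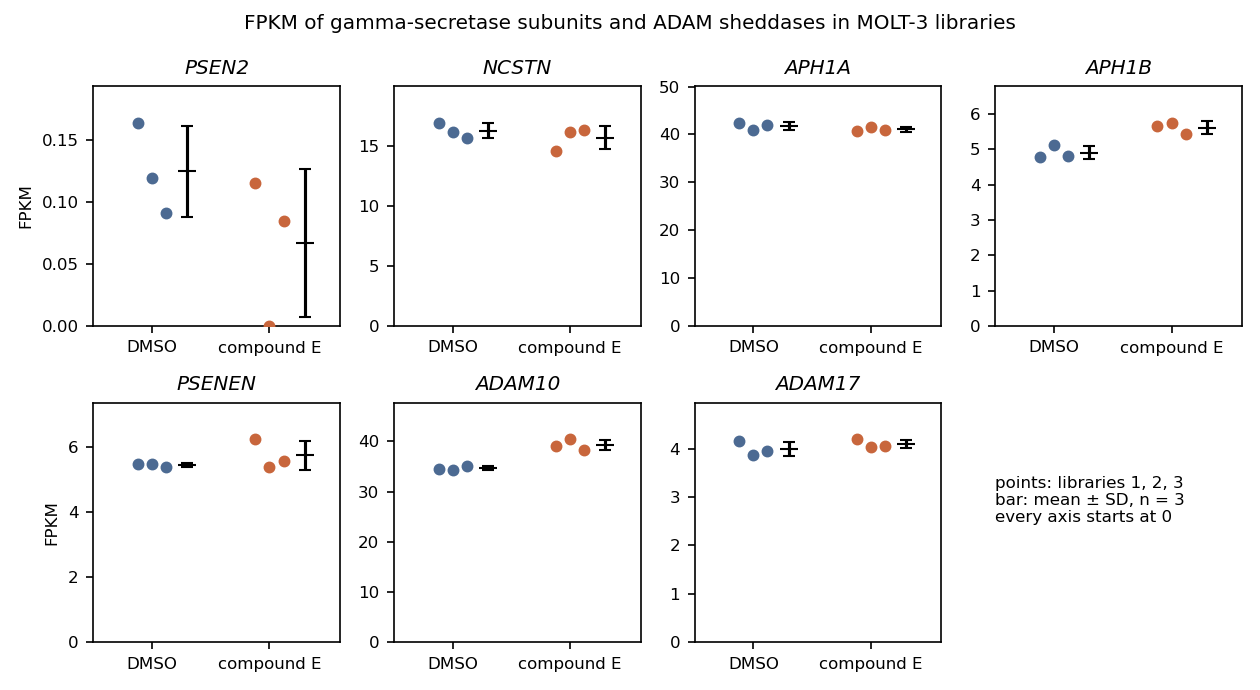
FPKM (vertical axis, from 0 in every panel) of the 7 genes in the 3 DMSO libraries and the 3 compound E libraries, with the mean and SD beside the points. The groups are apart for APH1B and ADAM10, overlap for the other 5 genes, and PSEN2 lies below 0.17 FPKM throughout.

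ADAM10 encodes the metalloprotease that sheds NOTCH receptors and many adhesion proteins. Its level was 563, 560 and 573 CPM in DMSO libraries 1 to 3 and 634, 656 and 622 CPM in compound E libraries 1 to 3. Every compound E library lay above every DMSO library. The rise was 1.13-fold, a log2 fold change of 0.17 ± 0.0256 (SE), with an adjusted p of 5.94e-07 in edgeR's quasi-likelihood test and a 95% interval of 1.09-fold to 1.17-fold. In absolute size the rise exceeded the change of 54.7% of the tested protein-coding genes. Among the 6484 called genes the median change was 1.22-fold.

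ADAM10 (ENSG00000137845) lies on the minus strand of chromosome 15 at 58588807 to 58749978, coordinates that GENCODE release 29 gives on GRCh38. Its exons cover 16168 bases over 17 annotated transcripts. The antisense gene AC018904.1 crosses its 3′ end and shares 136 exonic bases with it, or 0.841% of ADAM10's exonic bases. AC018904.1 also rose, from 6.42 ± 0.225 to 8.05 ± 0.232 CPM (SD, n = 3 per group; edgeR adjusted p = 0.0227), and lost its call with DESeq2 (adjusted p = 0.0872), without DMSO replicate 1 (0.0744) and without compound E replicate 1 (0.0735). The sources used here do not say whether counting used strand, so reads from the shared bases cannot be assigned to either gene.

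Upstream sequence was taken from RefSeq on GRCh38.p14, where 6 of the 7 genes, all but APH1B, had an entry, and the 250 bases before each RefSeq start were searched on both strands for 3 motifs. These were TGGGAA, the core bound by RBPJ, the DNA-binding partner of cleaved NOTCH, CACGTG, the E-box bound by MYC with MAX and by related factors, and CCGGAA, the ETS core. Stretches of 30 bases, 5′ to 3′ on the gene's own strand, are shown for ADAM10, the most clearly changed gene, for PSENEN, the gene with the RBPJ core, and for NCSTN and ADAM17 as examples of the ETS core, with the matched letters in capitals (TTCCGG is the ETS core on the opposite strand).
ADAM10, chr15:58749833-58749862, minus strand: gtgcccgcgcgtCACGTGgtgaggaaggag
PSENEN, chr19:35745439-35745468, plus strand: gcttaggagcacTGGGAAgtgtagttcgtt
NCSTN, chr1:160343254-160343283, plus strand: ctcccgcggtttCCGGAAgcgcctggaaac
ADAM17, chr2:9555839-9555868, minus strand: gcggcagccggcTTCCGGctgtgggtggtg
The E-box letters stood in ADAM10's window alone among the 6 genes, their first base 143 bases before the start, and in 6.34% of 35116 human promoters of the same length. The RBPJ core stood in PSENEN's window alone and in 20.8% of all promoters. The ETS core stood in the windows of NCSTN, APH1A and ADAM17 and in 14.5% of all promoters, and in NCSTN's window 2 of its 3 matches overlap each other on opposite strands. GENCODE 29 annotates exons over 193 to 250 bases of each window, so they are not purely upstream of every annotated start. These are matches of letters and say nothing about binding.

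ADAM17 encodes the sheddase of TNF and of several EGF receptor ligands. Its levels were 45.0, 42.0 and 42.9 CPM with DMSO and 45.4, 43.5 and 43.8 CPM with compound E, so the groups overlapped. The log2 fold change was 0.03 ± 0.0498 (SE; adjusted p = 0.676, edgeR), and its 95% interval ran from 0.952-fold to 1.10-fold. ADAM17 (ENSG00000151694) lies on chromosome 2, minus strand, at 9488486 to 9556732. IAH1, on the opposite strand, shares 1323 exonic bases with it, 12.3% of ADAM17's exonic bases, and fell from 48.7 ± 0.557 to 44.01 ± 1.604 CPM (SD, n = 3 per group; edgeR adjusted p = 0.0148). That call was lost with DESeq2 (adjusted p = 0.0653), without DMSO replicate 2 (0.0568) and without compound E replicate 2 (0.0797). Also on the opposite strand within ADAM17, AC073195.1 (edgeR adjusted p = 0.576) and AC080162.1 (0.787) were not called.

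The ratio of both sheddases was lower in every compound E library than in any DMSO library. The ratio of ADAM17 FPKM to ADAM10 FPKM was 0.120, 0.113 and 0.113 with DMSO and 0.108, 0.0997 and 0.106 with compound E. The means were 0.115 ± 0.00425 and 0.104 ± 0.00420 (SD, n = 3 per group; two-sided exact permutation p = 0.10). With 3 libraries against 3, 0.10 is the smallest p this test can give. ADAM10 is the ratio's denominator and rose while ADAM17 was not called, so the lower ratio is not a result separate from ADAM10's rise.

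Of the subunits, APH1B moved. It encodes the less abundant of the alternative APH1 scaffolds. Its level was 26.5, 28.5 and 26.8 CPM with DMSO and 31.3, 31.7 and 29.9 CPM with compound E. No library of either group reached the other group's range. The rise was 1.14-fold, a log2 fold change of 0.19 ± 0.0590 (SE), with an adjusted p of 0.0111 in edgeR's quasi-likelihood test and a 95% interval of 1.05-fold to 1.24-fold. The call was close to the threshold: the adjusted p was 0.0515 with DESeq2, 0.0531 with limma on unfiltered log2(FPKM + 1) and 0.0529 without DMSO replicate 1. APH1B (ENSG00000138613) lies on chromosome 15, plus strand, at 63276018 to 63309126, and 0 genes of the table overlapped it or lay within 1000 bases.

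APH1A encodes the other scaffold and had the highest FPKM of the 7 genes. Its levels were 149, 144 and 147 CPM with DMSO and 142, 145 and 142 CPM with compound E. Compound E libraries 1 and 3 lay below all DMSO libraries, and compound E library 2 lay above DMSO library 2. The log2 fold change was -0.03 ± 0.0318 (SE; adjusted p = 0.451, edgeR), with a 95% interval of 0.935-fold to 1.02-fold. APH1A (ENSG00000117362), on the minus strand of chromosome 1 at 150265399 to 150269580, shares 490 exonic bases with C1orf54, which was at 1.10 ± 0.142 CPM with DMSO and 1.12 ± 0.115 CPM with compound E (SD, n = 3 per group). CA14, 320 bases away, was not called (edgeR adjusted p = 0.507).

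APH1B made up a larger share of the APH1 transcripts in every compound E library than in any DMSO library. Its share of the summed APH1A and APH1B FPKM was 10.1%, 11.1% and 10.3% with DMSO and 12.2%, 12.2% and 11.7% with compound E. The means were 10.5% ± 0.536 and 12.04% ± 0.273 (SD, n = 3 per group), a difference of 1.52 percentage points (two-sided exact permutation p = 0.10, the smallest possible). APH1A remained 8.53 ± 0.473 times as high as APH1B with DMSO and 7.31 ± 0.191 times with compound E in FPKM (SD, n = 3 per group). The larger share rests on the same counts as APH1B's own rise and is not a result separate from it. The p-values of this share and of the sheddase ratio, the 2 permutation tests made, stay at 0.10 after Benjamini-Hochberg adjustment.

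NCSTN encodes nicastrin, the substrate-gating subunit. Its levels were 71.1, 68.1 and 66.0 CPM with DMSO and 61.2, 67.5 and 68.3 CPM with compound E. Compound E library 1 was the lowest of the 6, and the other compound E libraries fell within the DMSO range. The log2 fold change was -0.06 ± 0.0451 (SE; adjusted p = 0.322, edgeR), with a 95% interval of 0.901-fold to 1.02-fold, and -0.0098 without compound E library 1. NCSTN (ENSG00000162736) lies on the plus strand of chromosome 1 at 160343272 to 160358952. Its 5′ end overlaps that of COPA, a coat protein gene of Golgi vesicles on the opposite strand, by 129 exonic bases, or 3.09% of NCSTN's exonic bases. COPA fell from 242 ± 0.276 to 222 ± 2.54 CPM (SD, n = 3 per group), with a log2 fold change of -0.13 ± 0.0282 (SE; edgeR adjusted p = 0.000327).

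PSENEN encodes PEN-2, the smallest subunit. Its levels were 10.2, 10.2 and 10.1 CPM with DMSO and 11.6, 10.01 and 10.4 CPM with compound E, from 174 to 212 counts per library. Compound E library 1 was the highest and compound E library 2 the lowest of the 6. The log2 fold change was 0.07 ± 0.0978 (SE; adjusted p = 0.634, edgeR), and the 95% interval of 0.913-fold to 1.202-fold was the widest of the 6 tested, so a rise of the size seen for ADAM10 or APH1B lay within it. Without compound E library 1 the log2 fold change was 0.0038. PSENEN (ENSG00000205155) lies on chromosome 19, plus strand, at 35745114 to 35747519. U2AF1L4 shares 332 of its exonic bases (17.99%) and the antisense gene AD000671.3 shares 425 (23.0%). U2AF1L4 was at 5.79 ± 1.00 CPM with DMSO and 5.18 ± 0.141 CPM with compound E and was not called (edgeR adjusted p = 0.426), and AD000671.3 had a mean of 2.17 counts. LIN37 begins 841 bases downstream on the same strand and was not called (log2 fold change 0.26, edgeR adjusted p = 0.178). AD000671.1, on PSENEN's own strand, shares 285 exonic bases (15.4%) and had a mean of 0.167 counts. AD000671.2, on the opposite strand, shares 173 (9.38%) and had 0 counts. With strand use and the treatment of shared reads unknown, PSENEN's count is uncertain where these genes overlap.

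PSEN2, a presenilin, was barely detected. DMSO libraries 1 to 3 had 12, 9 and 6 PSEN2 counts and compound E libraries 1 to 3 had 8, 0 and 6, and the gene was too low to be tested. The summed counts of 14 with compound E against 27 with DMSO gave a ratio of 0.529, whose 95% interval of 0.256 to 1.04 (exact binomial, counting error only) includes no change. Without the low-count filter, edgeR gave a log2 fold change of -0.89 (adjusted p = 0.311). Without compound E library 2, the one at 0, the log2 ratio of the mean levels was -0.34. PSEN2 (ENSG00000143801) lies on chromosome 1, plus strand, at 226870184 to 226896105.

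**Figure D2:**
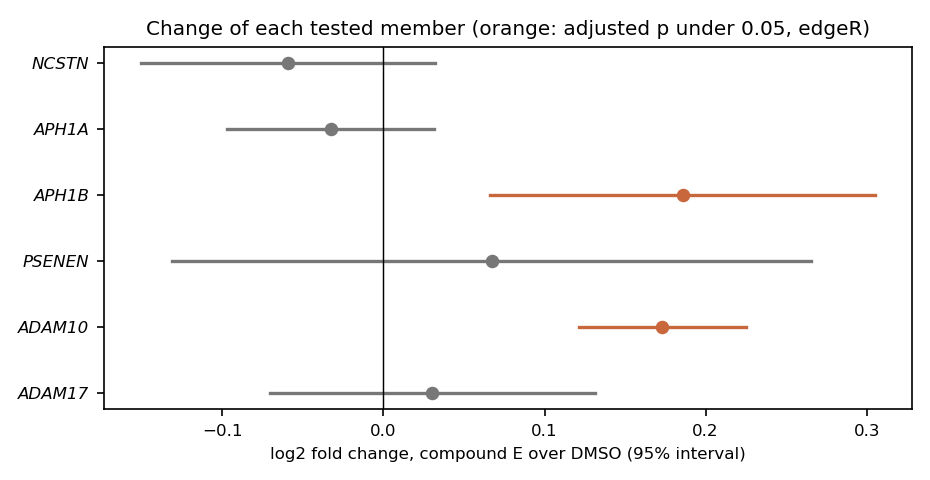
Log2 fold change of compound E over DMSO (horizontal axis) with its 95% interval for the 6 tested genes, from edgeR. ADAM10 (0.17) and APH1B (0.19) lie above 0, and the intervals of NCSTN, APH1A, PSENEN and ADAM17 cross 0.

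Levels were compared between genes by FPKM, which is per length. With DMSO the order was APH1A at 41.8 ± 0.774, ADAM10 at 34.6 ± 0.421, NCSTN at 16.2 ± 0.635, PSENEN at 5.46 ± 0.0563, APH1B at 4.91 ± 0.189, ADAM17 at 3.99 ± 0.145 and PSEN2 at 0.125 ± 0.0368 FPKM (SD, n = 3). The libraries of neighbours in this order did not overlap. With compound E the order was the same, at 41.1 ± 0.466 FPKM for APH1A, 39.3 ± 1.08 for ADAM10, 15.7 ± 0.943 for NCSTN, 5.75 ± 0.444 for PSENEN, 5.62 ± 0.175 for APH1B, 4.10 ± 0.0882 for ADAM17 and 0.0669 ± 0.0600 for PSEN2 (SD, n = 3). There PSENEN and APH1B overlapped and could not be ordered. In FPKM, APH1A and ADAM10 came closer together, from 1.21-fold apart with DMSO to 1.05-fold with compound E. How far apart they lie depends on the gene length used, as given below.

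Among the 12664 tested protein-coding genes, whose median was 6.10 FPKM with DMSO, APH1A ranked 825th and ADAM10 1087th. NCSTN ranked 2836th, while PSENEN, APH1B and ADAM17 lay below the median. By FPKM on the table's gene lengths, ADAM10 was the highest of the 20 protein-coding ADAM genes and ADAM17 the fifth, behind ADAM9 (8.47 FPKM), ADAM22 (5.99) and ADAM33 (4.43); the family was not ordered on other lengths. By FPKM, the subunits of 1 complex were thus not at like transcript levels with DMSO. APH1A was 2.58 ± 0.0921 times NCSTN, and NCSTN 2.97 ± 0.0945 times PSENEN (SD, n = 3). How far reads shared with overlapping genes changed PSENEN's level was not tested.

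The order depends in part on the gene length used. The length in the table equals all exonic bases of a gene's transcripts together, which exceeds the longest principal transcript 2.44 times for ADAM17 (10750 against 4413 bases), 2.03 times for APH1A and 1.11 times for PSENEN. On the principal transcript's length, an alternative added after the data were seen, ADAM17 was at 9.81 ± 0.342 CPM per kilobase with DMSO (SD, n = 3), above APH1B at 6.50 ± 0.257 and PSENEN at 6.12 ± 0.0599. APH1A, ADAM10 and NCSTN kept the top places in that order and PSEN2 the last. The ratio of ADAM17 to ADAM10 was then 0.198 ± 0.00732 with DMSO and 0.180 ± 0.00723 with compound E (SD, n = 3 per group), and APH1B's share was 7.07% ± 0.374 and 8.13% ± 0.192. Fold changes between the groups do not involve the length.

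**Figure D3:**
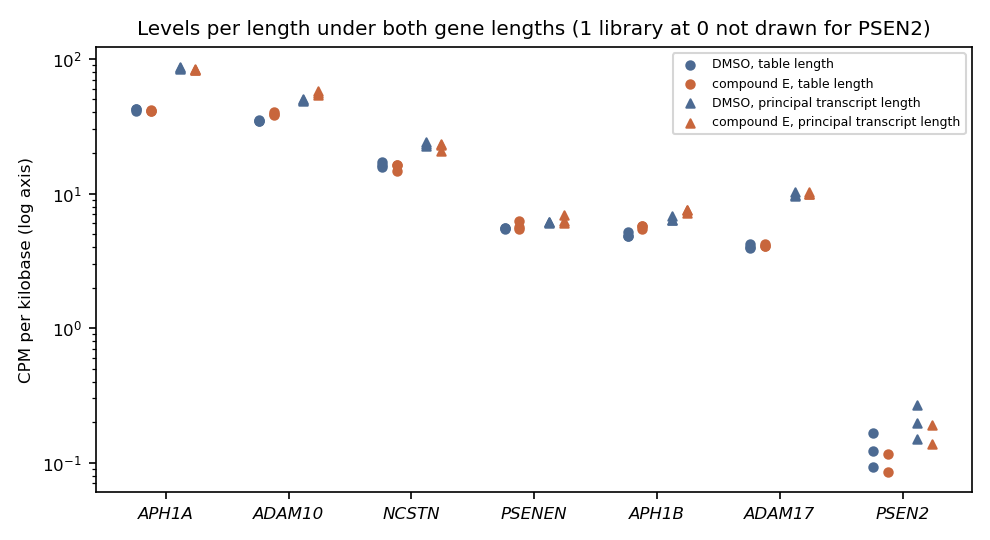
CPM per kilobase (vertical log axis) of each gene by library, with the length in the deposited table (circles) or of the longest principal transcript (triangles), DMSO in blue and compound E in orange. ADAM17 moves from 3.91 to 4.22 with the table's length to 9.53 to 10.3 with the principal transcript's, above PSENEN and APH1B.

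The replicate spread was small. The coefficient of variation of CPM was 0.979% for PSENEN, 1.24% for ADAM10 and 1.73% for APH1A with DMSO, and at most 3.95% for any tested gene of the 7. With compound E it was 1.06% for APH1A, 2.71% for ADAM10 and 7.82% for PSENEN, the largest among the tested genes.

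The protein-coding genes most like the called ones were sought over the 6 libraries by Pearson correlation of log2 CPM, among 10116 genes averaging 5 CPM or more. For ADAM10 they were ZNF652 (r = 0.999), PPHLN1 (0.997) and RACGAP1 (0.997), and for APH1B they were PIGX (r = 0.998), C18orf32 (0.994) and ATG4D (0.990). With 6 libraries in 2 groups, 765 genes had r above 0.95 with ADAM10 and 179 with APH1B.

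A list of 17 genes held partners and activators of ADAM10 and ADAM17, and the tissue inhibitors of metalloproteases whether or not they inhibit these 2. Of the 17, 15 were tested, 8 rose, 0 fell and 7 were not called, with a median log2 fold change of 0.17. None was lower at an unadjusted p under 0.05 in edgeR, and DESeq2 called 6. Over all genes 18.9% rose. TspanC8 tetraspanins escort ADAM10 to the cell surface, and of the 6 tested TSPAN14 rose from 72.9 ± 2.51 to 91.6 ± 1.58 CPM and TSPAN5 from 26.9 ± 2.13 to 32.4 ± 2.34 CPM (SD, n = 3 per group), while TSPAN15 (-0.18), TSPAN33 (-0.03), TSPAN17 (0.03) and TSPAN10 (0.13) were not called. TSPAN5 lost its call with limma on log2(FPKM + 1) (adjusted p = 0.0524). FRMD8, which holds the iRhom and ADAM17 complex at the surface, rose from 63.8 ± 2.55 to 77.6 ± 3.24 CPM (SD, n = 3 per group), and the iRhom gene RHBDF2 was not called (0.10). DLG1, a scaffold that binds ADAM10's tail, rose from 142 ± 3.26 to 163 ± 5.05 CPM.

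All 3 tested tissue inhibitors of metalloproteases rose, and TIMP4 had 0 counts. TIMP2 went from 199 ± 5.08 to 277 ± 4.58 CPM (SD, n = 3 per group), a 1.39-fold rise (edgeR adjusted p = 7.97e-17). TIMP1, an inhibitor of ADAM10, rose from 3.77 ± 0.205 to 5.37 ± 0.145 CPM. TIMP3, the inhibitor of ADAM17, rose from 4.22 ± 0.264 to 5.51 ± 0.364 CPM, a call that DESeq2 did not make (adjusted p = 0.108) and that was lost without DMSO replicate 1 (0.0594) or 3 (0.107) and without compound E replicate 2 (0.0816) or 3 (0.0875). Among the convertases that remove the ADAM prodomain, FURIN rose by a log2 fold change of 0.17 and lost its call with DESeq2 (adjusted p = 0.0598) and without DMSO replicate 3 (0.0914) or either of compound E replicates 2 (0.0676) and 3 (0.0677). PCSK7 (0.07) and PCSK5 (0.16) were not called.

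A list of other ADAM genes, BACE1, BACE2 and MMP14 holds family members with and without protease activity. It leaves out some ADAM genes, among them ADAM32 (0.208 FPKM with DMSO). Of 17 listed, 10 were tested, 5 fell, 0 rose and 5 were not called, with a median log2 fold change of -0.31; over all genes 19.4% fell. None was higher at an unadjusted p under 0.05 in edgeR, and DESeq2 called 4. ADAM9, next after ADAM10 in FPKM among the ADAM genes, fell from 59.1 ± 2.94 to 44.4 ± 0.980 CPM, and ADAM11, a family member without protease activity, from 9.80 ± 0.509 to 5.90 ± 0.377 CPM (SD, n = 3 per group). ADAM15 fell from 2.27 ± 0.280 to 0.959 ± 0.231 CPM and BACE1, the beta-secretase, from 10.2 ± 0.642 to 7.22 ± 0.687 CPM. ADAM22, also without protease activity, fell by 0.11 on the log2 scale, and the call was lost under 11 of 18 alternatives, among them DESeq2 (adjusted p = 0.136), the replicate number as a block (0.0521) and fits without DMSO replicate 1 (0.255) or 3 (0.0568) or compound E replicate 2 (0.0515) or 3 (0.215).

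The list of gamma-secretase trafficking genes, which also holds genes linked to the complex in other ways, was split. Of 9 listed, 8 were tested, 3 rose, 2 fell and 3 were not called, with a median log2 fold change of 0.03, where 18.9% of all tested genes rose and 19.4% fell. RER1, which retains unassembled subunits in the early secretory pathway, rose from 75.3 ± 0.211 to 85.6 ± 2.94 CPM, and TMED10, a cargo receptor found with the complex, fell from 189 ± 1.48 to 167 ± 4.12 CPM (SD, n = 3 per group). ARRB1, a beta-arrestin, fell by 0.55 on the log2 scale. TMED2 (0.12) and BSG (0.10) rose; TMED2 lost its call without DMSO replicate 3 (edgeR adjusted p = 0.0540) or compound E replicate 2 (0.0858), and BSG without DMSO replicate 1 (0.0555).

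Of 11 other intramembrane proteases, 9 were tested, 4 rose, 2 fell and 3 were not called, with a median log2 fold change of 0.10, beside 18.9% higher and 19.4% lower over all tested genes. DESeq2 called 4 of the 9. The signal peptide peptidases share the presenilin fold: HM13 fell from 111 ± 2.15 to 98.2 ± 3.92 CPM and SPPL2A rose from 34.8 ± 1.90 to 41.7 ± 2.76 CPM (SD, n = 3 per group). SPPL2B rose by a log2 fold change of 0.10 with overlapping groups, and its call was lost under 13 of 18 alternatives, among them DESeq2 (adjusted p = 0.343), limma-voom (0.0558), a fit blocked by replicate number (0.0867) and fits without DMSO replicate 3 (0.428) or either of compound E replicates 1 (0.0618) and 3 (0.318). Of the rhomboids, RHBDD1 fell by 0.20 on the log2 scale, and RHBDL3 rose by 0.60 at low counts, from 2.67 ± 0.133 to 4.07 ± 0.661 CPM. The mitochondrial rhomboid PARL rose by 0.26 and lost its call with DESeq2 (adjusted p = 0.0874) and without DMSO replicate 1 (0.157) or 3 (0.0737) or compound E replicate 1 (0.0837).

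Substrates of gamma-secretase or of these sheddases, NOTCH receptors aside, went in both directions. Their log2 fold changes spanned a wider range than those of the 6 tested genes of the 7, but more substrates were tested. Of 39 listed, 32 were tested, 8 rose, 9 fell and 15 were not called, with a median log2 fold change of -0.02 and a range from -1.47 to 1.92. Over all tested genes 38.3% were called, 18.9% higher and 19.4% lower. CD44, an adhesion receptor cut by ADAM10 and gamma-secretase, went from 38.01 ± 0.0739 to 19.97 ± 1.07 CPM (SD, n = 3 per group), a 1.90-fold fall (edgeR adjusted p = 4.70e-16). IGF1R, a growth factor receptor tyrosine kinase, fell by 1.47 and ITM2B, a small membrane protein shed by ADAM10, by 0.34 on the log2 scale. HBEGF, an EGF receptor ligand released by ADAM17, rose from 0.850 ± 0.119 to 3.25 ± 0.302 CPM, a log2 fold change of 1.92 at low counts. The sorting receptors SORL1 (-0.46) and SORT1 (0.25) moved in opposite directions, and SPN, the abundant leukocyte sialophorin CD43, rose by 0.10 on the log2 scale. TNF, IL6R, FASLG and AREG had at most 3 counts in any library. With limma on unfiltered log2(FPKM + 1), the calls of TSPAN5, FURIN, TIMP3, TMED2, SPPL2A, RHBDL3, PARL, SPPL2B, BACE1, ADAM22 and SORL1 were lost, as were those of IAH1 (adjusted p = 0.0609), which overlaps ADAM17, and of C18orf32 (0.126), named beside APH1B.

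**Figure D4:**
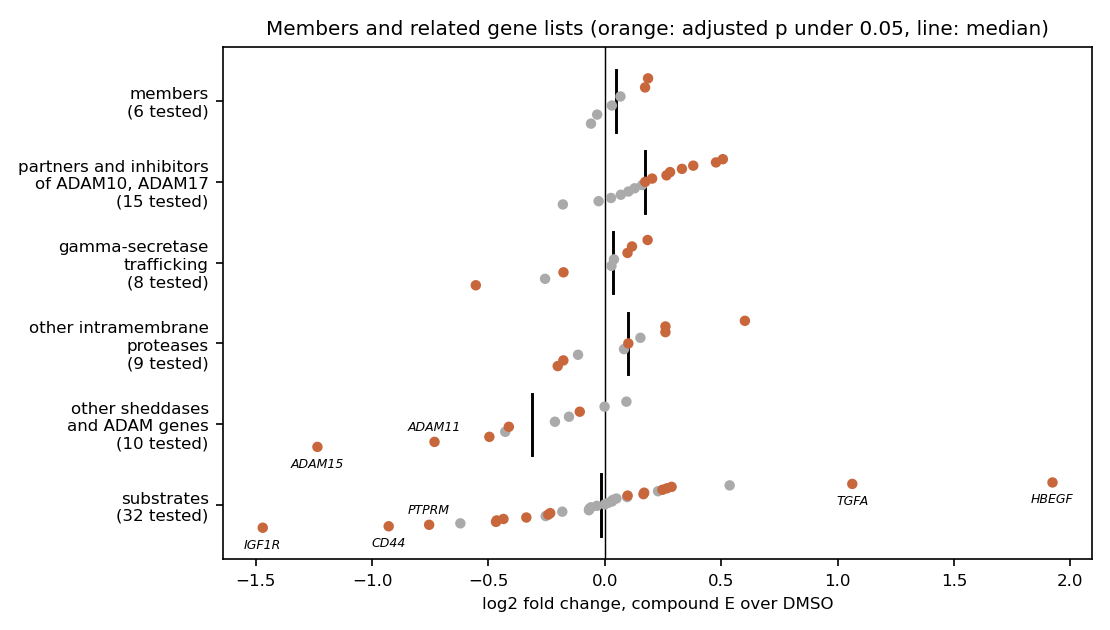
Log2 fold change of compound E over DMSO (horizontal axis) for each tested gene of the 7 and of the 5 related lists, with called genes in orange and the median as a line. The members span -0.06 to 0.19, the list of other sheddases and ADAM genes has no called gene above 0, and the substrates reach from -1.47 (IGF1R) to 1.92 (HBEGF).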

How the data were processed

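RNA-seq counts of MOLT-3 cells were compared between compound E and DMSO, 3 libraries each. The count table deposited by the authors held whole-number read counts per gene without normalisation. The authors also deposited FPKM; in it, count divided by FPKM and gene length gave 1 depth per library. The submitters' processing notes name HISAT2 2.0.5, featureCounts 1.5.0-p3 and DESeq2 1.16.1 with no role; the sources used here do not give the build, strand use or treatment of shared reads. All 58735 identifiers had the start, end and strand of GENCODE 29 (GRCh38).

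Counts were fitted in R 4.3.3 with edgeR 4.0.16 (filterByExpr, TMM, quasi-likelihood F-test, treatment as the only term), which left 16926 genes; adjustment (Benjamini-Hochberg) ran over all of these, with calls under 0.05. SE was taken as the log2 fold change over root F. The fit was tested on simulated data, where every planted change was larger than those of ADAM10 and APH1B. That trial does not cover changes of their size. Members, gene lists, tests and motifs were chosen with earlier results of these data known. Named are the members and, of 5 lists, called members with the smallest p. The rule allowed at most 4 of these per list, and further ones and uncalled ones were chosen after their values were seen. Overlapping genes with a mean of at least 10 counts and the 3 most correlated genes are also named. AD000671.1, AD000671.2 and AD000671.3 were added after their values were seen. Alternatives were other scalings and filters, DESeq2 1.42.0, limma 3.58.1 (voom, and log2 FPKM with pseudocounts of 1 and 0.1), an adjusted p under 0.01, a replicate block and each library left out. Every pair of replicate libraries differed beyond sampling noise (chi-square per degree of freedom of 1.62 to 2.59). Each was counted as 1 replicate, though such differences do not show that the libraries came from separate cultures. Figures were drawn with matplotlib 3.10.9.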

Additional observations from a re-analysis of the deposited data

How the results depend on the processing

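ADAM10 kept its rise and its call under all 18 alternatives, at log2 fold changes from 0.15 to 0.19 and adjusted p from 4.15e-10 to 0.00768. NCSTN, APH1A, PSENEN and ADAM17 kept their direction and stayed uncalled under all 18. APH1B lost its call with DESeq2 (log2 fold change 0.19, adjusted p = 0.0515), with limma on unfiltered log2(FPKM + 1) (0.16; 0.0531), at an adjusted p under 0.01 (0.19; 0.0111) and without DMSO replicate 1 (0.17; 0.0529), so 1 of the 7 genes was called under those settings in place of 2. Over the 6 fits without 1 library, APH1B's log2 fold change was 0.17 to 0.22 and the count of called genes 1 to 2. Limma on unfiltered log2(FPKM + 1) called 5 genes of the list of ADAM partners and tissue inhibitors. It also called 2 other intramembrane proteases and 3 of the other sheddases and ADAM genes. That setting called 4002 genes in all, against 6484. DESeq2 called 4949. Same-numbered libraries showed almost no shared deviation from their group means (correlations 0.0103, -0.0191 and 0.000118). The labels do not say whether they were handled together. With the replicate block 6138 genes were called and, of the 7, ADAM10 and APH1B again (log2 fold changes 0.17 and 0.19). Among the other genes named, only SPPL2B and ADAM22 lost their calls with the block. For PSEN2 the log2 ratio ran from -1.56 to -0.34 over the left-out libraries, and its depth of 0 to 12 counts allows no finer statement. The share of APH1B and the sheddase ratio kept their direction under the 8 settings tried.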
